A study of Danio rerio with 19 samples.

Results

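The cytosolic ribosomal protein genes of zebrafish pancreatic islet cells were followed across 4 sorted cell populations. A gene was taken where its symbol was RPL or RPS followed by a number, in any letter case, or was that of the stalk proteins RPLP0, RPLP1 and RPLP2 or of RPSA. Genes named for an S6 kinase, for a protein that binds RPS19 or for the RPS27-like protein were left out. By this rule 82 of the 31901 genes in the count tables were taken, 46 of the large subunit and 36 of the small subunit, with 78 distinct symbols among them. Symbols are printed as the name table gives them, which for many zebrafish genes is the human spelling. All 82 reached the minimum mean level for testing, so none was lost to a filter.

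All fish carried Tg(sst1.1:eGFP) together with Tg(ins:NTR*-P2A-mCherry), in which the sst1.1 promoter drives GFP and the insulin promoter drives mCherry and a nitroreductase that makes β-cells sensitive to the prodrug NFP. They were adults of 6 to 10 months, both sexes were used, and islets of 2 to 4 fish were pooled before sorting. Bihormonal cells (6 libraries), positive for GFP and mCherry, came from fish exposed to 2.5 µM NFP for 18 h and collected 20 days after treatment. β-cells (mCherry-positive, 7 libraries) and cells with strong GFP (GFPhigh, 3 libraries) or weak GFP (GFPlow, 3 libraries) came from control fish held for 18 h in 0.16% DMSO. The state of the cell and the ablation of the fish therefore cannot be told apart in any comparison with bihormonal cells. Each sort holds the cells that a promoter reporter labels, with purity checked by microscopy.

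The ribosome translates mRNA into protein and is built from a small subunit, which reads the mRNA, and a large subunit, which forms the peptide bonds. Each subunit holds ribosomal RNA and one copy of most of its proteins, so the genes for these proteins are usually expressed together and at high levels. In secretory endocrine cells such as β- and δ-cells, much of the translation goes into hormone precursors, and the mRNAs of ribosomal proteins begin with an oligopyrimidine tract through which the mTOR kinase and LARP1 control their translation in mammals.

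The libraries held 5599246 to 18077658 counts and 15331 to 20400 genes with a count, the lowest being GFPhigh library 2 and the next lowest 17675. Hormone mRNAs took 24.6 to 32.6% of the counts in β-cells, 35.7 to 61.8% in bihormonal cells, 41.2 to 53.3% in GFPhigh cells and 31.8 to 37.6% in GFPlow cells, and the markers were those of the labels: ins in β- and bihormonal cells, sst1.1 in GFPhigh and bihormonal cells, sst2 in GFPlow cells. Acinar markers took at most 0.0699% of counts (GFPlow library 1), blood and immune markers at most 0.0348% and endothelial and stromal markers at most 0.00397%. The 11 duct markers, of which CLU gave 72.2% of the counts, took 0.057 to 0.0919% in bihormonal cells, 0.087 to 0.129% in GFPhigh cells, 0.168 to 0.197% in GFPlow cells and 0.168 to 0.251% in β-cells. The part of these other cells in the results below was not tested. Sorted by library number, the 19 libraries form 6 runs, named A to F here, whose meaning the labels do not give. Run A holds bihormonal libraries 1 to 3, run B GFPlow 1, run C bihormonal 4 and 5 with β-cell 1, run D β-cell 2 and 3 with GFPlow 2 and 3, run E GFPhigh 1 and 2 with β-cell 4 and 5, and run F GFPhigh 3, bihormonal 6 and β-cell 6 and 7.

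Taken as one sum, the 82 genes gave 1.77 to 2.99% of all counts in GFPhigh cells, 2.68 to 3.59% in GFPlow cells, 3.04 to 3.82% in bihormonal cells and 3.25 to 5.18% in β-cells. By this raw share β-cells ranked first. Once hormone and mitochondrially encoded mRNAs were left out of the total, the share was 4.91 to 8.59% in bihormonal cells, with a mean of 6.94 ± 1.40% (SD), against 5.78 ± 1.1% in β-cells, where it ran from 4.54 to 7.30%. It was 3.90 to 5.26% in GFPhigh cells and 4.46 to 5.45% in GFPlow cells. The order of bihormonal and β-cells thus changed with the denominator, and the ranges of these groups overlapped under both. A share in a bulk sample cannot tell fewer cells of a type from less RNA per cell.

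The normalized read count used from here on is a count divided by the relative effective size of its library, from the TMM scaling of edgeR (a trimmed mean of log ratios between libraries). On this scale bihormonal cells had the highest group mean for 80 of the 82 genes, and the lowest mean lay in GFPlow cells for 46 and in GFPhigh cells for 36. For these counts, and for those of single libraries below, the share over all genes is not given here. The genes rose and fell together from library to library. The median of their log2 deviations from each gene's own mean was 0.92 in bihormonal library 4, 0.73 in library 5, 0.55 in library 2, 0.38 in library 3 and 0.11 in library 1, but −0.17 in library 6. In β-cells it was 0.46 in library 1 and 0.50 in library 7 and between −0.37 and 0.10 in the other 5. In the GFPhigh libraries it was −0.40, −0.94 and −0.11, and in the GFPlow libraries −0.25, −0.80 and −0.29. A single library therefore stood high or low for most of the genes at once: bihormonal library 4 was the highest of all 19 for 53 of the 82 genes, and GFPhigh library 2 was the lowest for 46. In bihormonal library 6 only 15 genes were above their own mean, against 60 to 81 in the other 5 bihormonal libraries. The TMM factors of bihormonal libraries 4 and 5 (0.476 and 0.630) were the lowest of all, and that of bihormonal library 6 (1.13) was the highest of its group.

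**Figure D1:**
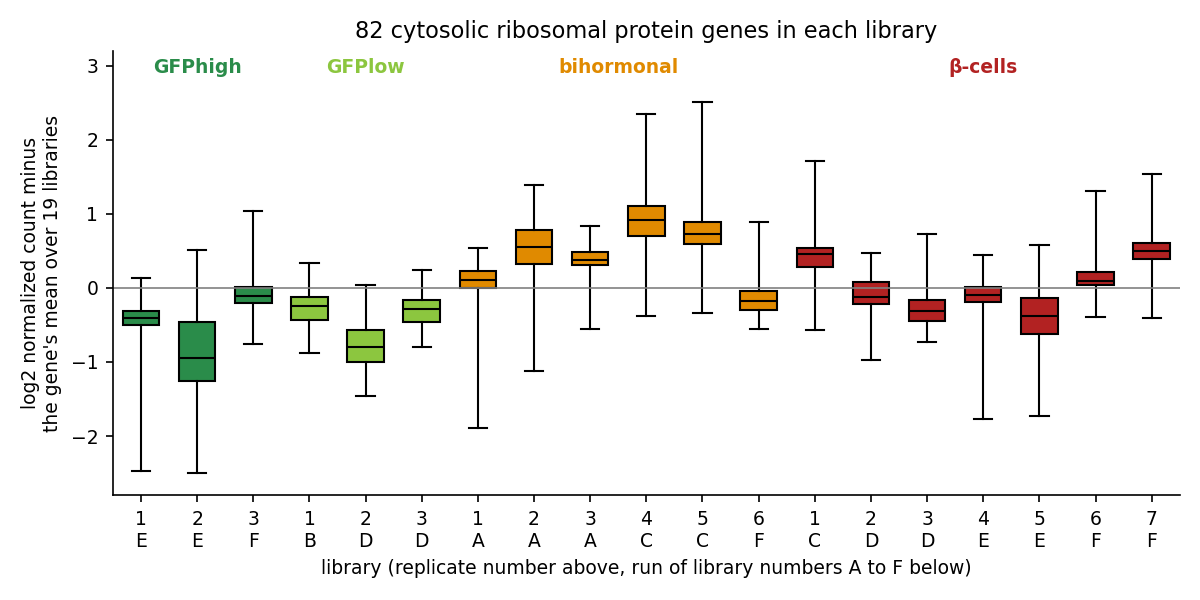
Log2 normalized count of each of the 82 genes minus that gene's mean over the 19 libraries (y axis), by library (x axis, with the replicate number and the run of library numbers below it). Boxes span the quartiles, the line is the median and whiskers reach the lowest and highest gene. The medians run from −0.94 in GFPhigh library 2 to 0.92 in bihormonal library 4, and bihormonal library 6 (−0.17) sits below the other 5 of its group.

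Within a group the log2 level of a gene had a median SD of 0.43 over the 82 genes, compared with 0.48 over all 14693 genes tested and 0.37 over the 1007 genes with a mean of at least 1000. When each gene was expressed relative to the median of the 82 in the same library, this SD fell to 0.23. Part of the spread within groups was thus shared by the genes of a library.

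The first comparison asks how bihormonal cells differ from the sst1.1 δ-cells (GFPhigh), which express the same somatostatin gene. Of the 82 genes 81 were fitted higher in bihormonal cells, against 52.6% of all genes tested, with a median log2 fold change of 0.91 (1.88-fold) and a range from −0.02 to 1.56. The median was 0.05 over all genes and 0.29 over genes with a mean of at least 1000. Under edgeR's quasi-likelihood test with adjustment over all 14693 genes, 7 rose at an adjusted p under 0.05, where 1.78% of all genes were called higher, and 6 of them more than 2-fold (1.42% of all genes). None fell (1.65% of all genes). DESeq2's Wald test, with nearly the same median (0.90), called 57 of them higher, where it called 7.25% of all genes higher. The adjusted p of the 82 genes had a median of 0.0732, and 63 were under 0.1. Without adjustment 76 were higher at p under 0.05 (92.7%), against 15.4% of all genes and 31.6% of genes with a mean of at least 1000. In 22 genes every bihormonal library was above every GFPhigh library, against 6.68% of all genes.

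RPS24, a small-subunit protein whose gene is mutated in some families with Diamond-Blackfan anaemia, rose most clearly. Its normalized counts were 2532, 2805, 2647, 3555, 3151 and 3234 in bihormonal libraries 1 to 6 and 1024, 736 and 1564 in the GFPhigh libraries. The groups did not overlap, and bihormonal library 6, low for most of the other genes, was the second highest here. The log2 fold change was 1.43 ± 0.25 (SE) and the adjusted p 0.00885. RPS24 was also higher than in β-cells, which ranged from 1140 to 2111 with a median of 1670, again without overlap: the log2 fold change was 0.88 ± 0.18 and the adjusted p 0.00126. It was the only one of the 82 genes without overlap in that direction between bihormonal and β-cells (1.22%, against 4.61% of all genes).

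The other genes called higher than in GFPhigh cells had smaller margins, with adjusted p from 0.0413 to 0.0498. They were RPS28 (1.08 ± 0.27), RPS21 (0.97 ± 0.25) and RPS10 (1.05 ± 0.29) of the small subunit and RPL22 (1.104 ± 0.29), RPL35 (1.06 ± 0.29) and the RPL5 gene ENSDARG00000020197 (1.08 ± 0.30) of the large subunit, as log2 fold change and SE. RPS10 sits near the entry of the mRNA channel, RPL35 near the exit of the peptide tunnel, and RPL5 carries ribosomal RNA into the large subunit. RPS28 had 1314, 2050, 1427, 2351, 1872 and 1250 normalized counts in bihormonal libraries 1 to 6 and 767, 638 and 1015 in GFPhigh libraries 1 to 3. RPL35 had 1666, 3047, 2130, 2889, 2317 and 1524 against 1106, 732 and 1413. In each of these 6 genes the groups did not overlap, the lowest bihormonal library being 1 or 6 and the highest GFPhigh library being 3, but in RPS21 the nearest libraries were tied at 1714. Just outside the threshold stood RPL27 (log2 fold change 1.15 ± 0.32) and RPS16 (1.03 ± 0.29), each with an adjusted p of 0.0502.

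Towards the other end of the range were RPL3 (log2 fold change 0.48 ± 0.32) and RPL6 (0.52 ± 0.23). RPL3, whose protein reaches towards the peptidyl transferase centre, had 32704, 22208, 30878, 47749, 51543 and 16177 normalized counts in the bihormonal libraries and 17222, 31885 and 23178 in the GFPhigh libraries. The highest RPL3 of the control sorts was therefore in GFPhigh library 2, the library in which most of the 82 genes were at their lowest.

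The count of 7 rested on single libraries. Without bihormonal library 6 it was 42 and without GFPhigh library 3 it was 34, where 3.09 and 3.59% of all genes were called higher. It was 18 without bihormonal library 1 (2.11% of all genes) and 14 without bihormonal library 2 (4.70%). It was 1 without bihormonal library 4 (0.265%), bihormonal library 5 (0.245%) or GFPhigh library 1 (0.946%). Without GFPhigh library 2 it was 0, where 0.0544% of all genes were called higher. The median log2 fold change stayed between 0.73 and 1.1. Run F is the only run of library numbers with both groups, 1 library of each, and within it the median was −0.08, with 30 of 82 genes higher in the bihormonal library. With the run as a block the median was 0.30 and none of the 82 genes was called, where 0.204% of all genes were called higher. RPS24 was 1.05 higher on the log2 scale within run F and 1.12 higher with the block (adjusted p = 0.0820).

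**Figure D2:**
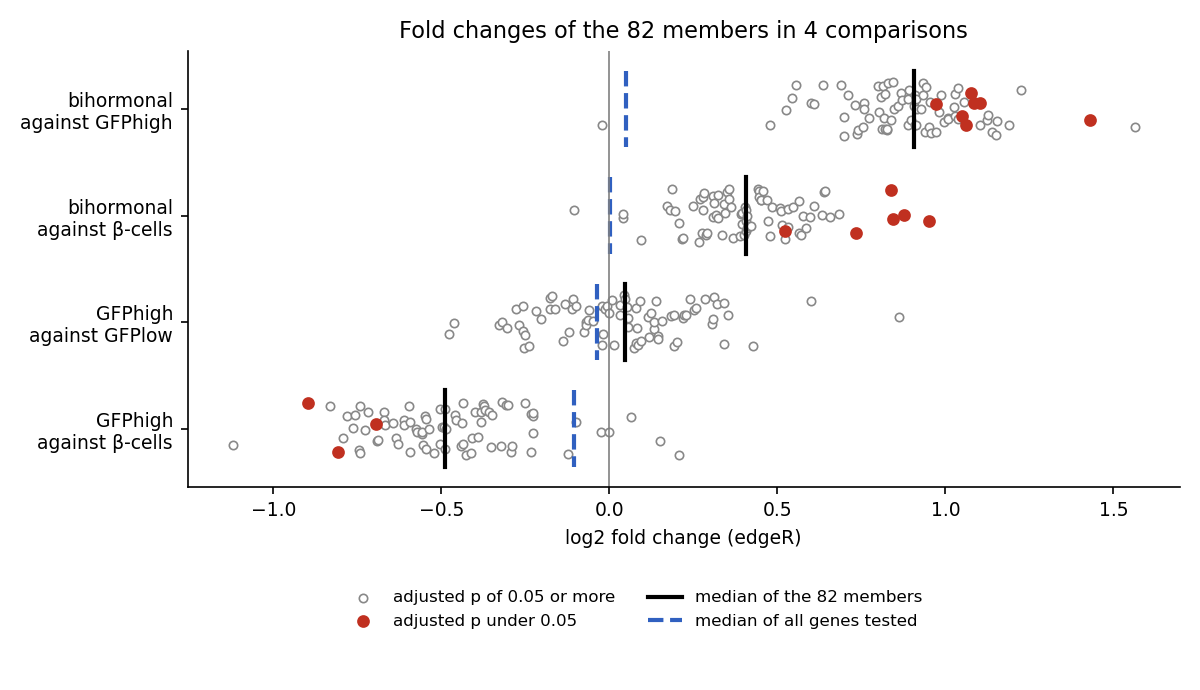
Log2 fold change (x axis) of each of the 82 genes in the 4 comparisons (y axis). Filled points have an adjusted p under 0.05 in edgeR's test, the black line is the median of the 82 genes and the dashed blue line that of all genes tested. The cloud lies to the right of the dashed line in both comparisons of bihormonal cells (medians 0.91 and 0.41), around it for GFPhigh against GFPlow (0.05) and to its left for GFPhigh against β-cells (−0.49).

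Against β-cells, the cell type that was ablated, bihormonal cells again showed 81 of the 82 genes fitted higher (50.0% of all genes), but by less. The median log2 fold change was 0.41 (1.33-fold), from −0.11 to 0.95. It was 0.00 over all genes and 0.12 over genes with a mean of at least 1000. Of the 82 genes 6 rose at an adjusted p under 0.05, where 9.97% of all genes were called higher, none more than 2-fold (7.39% of all genes), and none fell (8.69% of all genes). The share of 7.32% was thus below that of all genes. Without adjustment 27 were higher at p under 0.05 (32.9%), against 14.9% of all genes and 25.1% of genes with a mean of at least 1000. DESeq2's Wald test called 14 higher, against 11.4% of all genes.

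The 6 genes were RPL15 (0.95 ± 0.19, adjusted p = 0.00101), RPS24, RPL29 (0.84 ± 0.22), RPL37 (0.84 ± 0.26), RPL19 (0.74 ± 0.23) and RPL17 (0.52 ± 0.18), so that 5 of 6 belonged to the large subunit. RPL17 and RPL19 lie at or near the exit of the peptide tunnel, and RPL15 and RPL37 are buried in the body of the subunit. RPL15 had 3482, 6355, 5746, 7513, 6174 and 2818 normalized counts in bihormonal libraries 1 to 6, against 2261 to 3257 with a median of 2747 in β-cells. Of the bihormonal libraries only the sixth lay inside the range of the β-cells. RPL29 had 5516, 7832, 7786, 10668, 8138 and 3302, against 2856 to 6000 with a median of 3702, so the first and the sixth overlapped. In RPL37 and RPL19 the sixth library, at 3388 and 10153, was likewise below most of the β-cell libraries.

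Among the lowest fitted changes were those of RPL22L1 (−0.11 ± 0.23) and RPL7L1 (0.04 ± 0.32). The count of 6 became 17 without bihormonal library 6 and 13 without β-cell library 7, where 9.29 and 10.2% of all genes were called higher. It was 3 without bihormonal library 4 (9.52% of all genes) or 5 (9.60%) or without β-cell library 2 (8.98%) or 3 (9.17%). In run C bihormonal libraries 4 and 5 (0.92 and 0.73 as median deviation) were above β-cell library 1 (0.46), whereas in run F bihormonal library 6 (−0.17) was below β-cell libraries 6 (0.10) and 7 (0.50). With the run as a block the median log2 fold change was −0.06 and RPS24 was the gene still called (0.69, adjusted p = 0.0431). In that fit 5.82% of all genes were called higher.

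**Figure D3:**
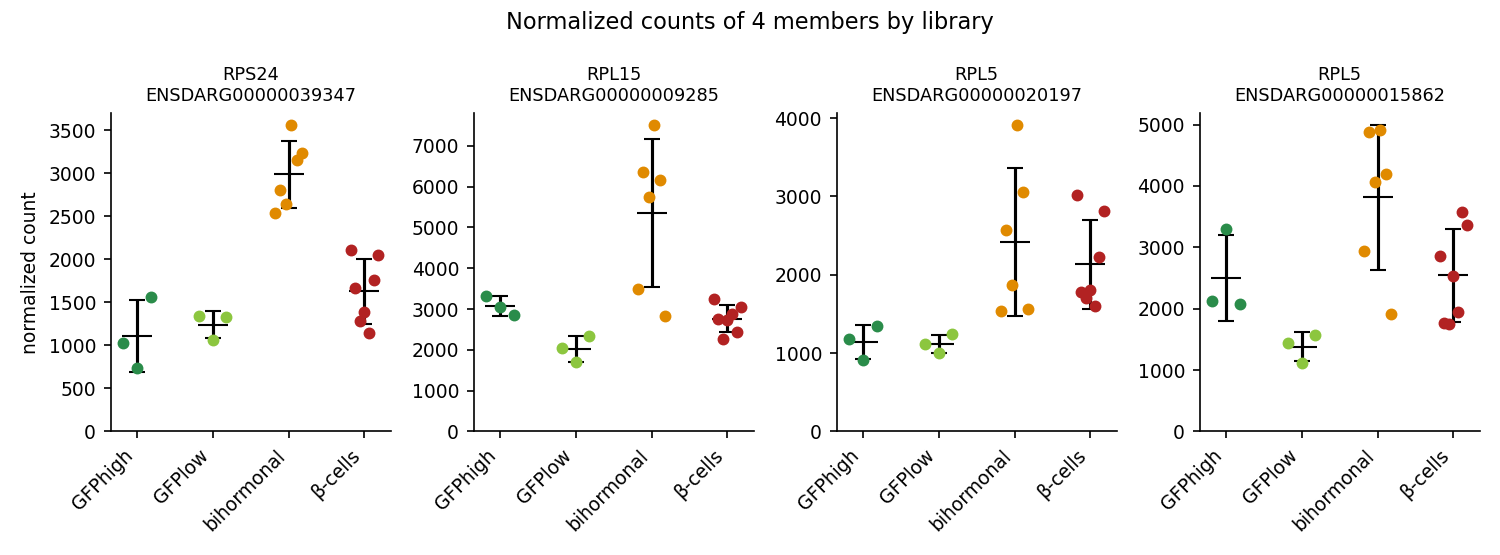
Normalized counts (y axis, from 0) of RPS24, RPL15 and both RPL5 genes in each library (points) of the 4 groups (x axis), with mean and SD in black. RPS24 is the gene in which all 6 bihormonal libraries (2532 to 3555) lie above all others (736 to 2111), while in RPL15 the lowest bihormonal library (2818) falls among the β-cells (2261 to 3257).

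GFPhigh and GFPlow cells were sorted from the same kind of control fish. The median log2 fold change of GFPhigh against GFPlow was 0.05 with 46 genes above 0 and 36 below (48.2% of all genes were above 0). Over genes with a mean of at least 1000 the median was 0.14. No gene was called in either direction by edgeR (9.11% of all genes were called higher and 8.63% lower) or by DESeq2, and 2 were higher and none lower at an unadjusted p under 0.05 (15.9 and 14.6% of all genes). In 8 genes all GFPhigh libraries were above all GFPlow libraries, compared with 18.1% of all genes. The largest difference was that of the RPL5 gene ENSDARG00000015862, with 2119, 3306 and 2076 normalized counts against 1440, 1116 and 1576 (log2 fold change 0.86 ± 0.34, adjusted p = 0.0864). RPL15 followed, with 3319, 3051 and 2851 against 2057, 1699 and 2332 (0.60 ± 0.28, adjusted p = 0.158). In both genes the groups did not overlap although neither passed the test. No run of library numbers holds both of these groups. The balance of directions rested on single libraries and on the kind of count table, of which there are 2 (all GFPlow tables are of the kind that GFPhigh library 3 has, described with RPL26). Without GFPhigh library 2, 74 genes were fitted higher in GFPhigh cells (median 0.20), and without GFPhigh library 3, 27 were (median −0.16). With the kind of table as a block 68 were higher (median 0.20), and with GFPhigh library 3 as the only GFPhigh library, all tables then being of 1 kind, 80 were (median 0.32, against −0.04 over all genes). None of the 82 genes was called in the first 3 of these fits, where 13.3, 20.1 and 13.6% of all genes were called in either direction. For the last fit, with its 1 GFPhigh library, only the effect size is given.

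Compared with β-cells, GFPhigh cells had 79 of the 82 genes fitted lower and 3 higher (44.7% of all genes were fitted higher). The median log2 fold change was −0.49 (1.40-fold lower), against −0.11 over all genes and −0.23 over genes with a mean of at least 1000. In this comparison 3 genes fell at an adjusted p under 0.05, where 11.9% of all genes were called lower, none more than 2-fold (7.7% of all genes), and none rose (13.7% of all genes). Without adjustment 23 were lower at p under 0.05 (28.0%), against 19.8% of all genes and 26.6% of genes with a mean of at least 1000. The 3 were the RPL5 gene ENSDARG00000020197 (−0.90 ± 0.29, adjusted p = 0.0273), RPS21 (−0.69 ± 0.24, adjusted p = 0.0388) and rps3 (−0.81 ± 0.30, adjusted p = 0.0493), the last at the mRNA entry of the small subunit. This RPL5 gene had 1174, 913 and 1350 normalized counts in GFPhigh cells and 1598 to 3012, with a median of 1799, in β-cells. RPS21 had 1183, 933 and 1714 against 1744 to 2451, with a median of 1969. These were the 2 genes in which every GFPhigh library lay below every β-cell library (11.5% of all genes), RPS21 narrowly so. RPL3 (0.21 ± 0.31) and RPL15 (0.15 ± 0.24) were among the 3 genes fitted higher in GFPhigh cells. The count of 3 was 20 without GFPhigh library 3 and 6 without β-cell library 3, where 12.9 and 10.9% of all genes were called lower. It was 1 without β-cell library 2 (10.2% of all genes). Without GFPhigh library 1 (8.21%) or 2 (5.29%) or without β-cell library 1 (9.82%) or 7 (8.47%) it was 0. Within runs E and F the median deviations of the GFPhigh libraries (−0.40 and −0.94, then −0.11) were below those of the β-cell libraries of the same run (−0.09 and −0.37, then 0.10 and 0.50).

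Taken by role, the genes for the ribosomal stalk, which recruits the elongation factors to the large subunit, followed the common pattern. RPLP0 had a mean normalized count of 26322 ± 9004 (SD) in bihormonal cells, 19654 ± 6393 in β-cells, 14010 ± 4617 in GFPhigh cells and 14773 ± 1732 in GFPlow cells. RPLP1 had 7914 ± 3206 in bihormonal cells and 4463 ± 561 in GFPhigh cells, and rplp2 had 8432 ± 2787 and 4363 ± 910. None of the 3 was called in any comparison. RPSA2, kept here as the RPSA gene, encodes a small-subunit protein also known as a laminin receptor precursor and had 25626 ± 11008 in bihormonal cells against 13833 ± 452 in GFPhigh cells. Its 3 GFPhigh values lay close together, and bihormonal library 6 (13110) was below all of them.

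The 2 RPL5 genes and RPL11 encode the proteins that bind a small ribosomal RNA of the large subunit and that, when free, bind Mdm2 in mammals. RPL11 had 10647 ± 3889 in bihormonal cells, 8138 ± 2186 in β-cells, 5743 ± 603 in GFPhigh cells and 5291 ± 157 in GFPlow cells. RPS6, the substrate of the S6 kinases, had 11898 ± 4385, 8275 ± 1955, 7039 ± 265 and 5886 ± 366 in the same order. RPS19, the gene most often mutated in Diamond-Blackfan anaemia, had 10128 ± 3661, 6691 ± 2101 and 5107 ± 483 in the first 3 groups and 4470 in GFPlow cells. RPL10, which joins the large subunit last, had 3325 ± 1286, 2333 ± 736, 1508 ± 70.4 and 1427 ± 303. In RPL11, RPS6, RPS19 and RPL10 the order of the group means was the same, and the bihormonal group had the largest SD, with libraries 4 and 5 highest and library 6 lowest in each. No difference between neighbours in this order passed the test.

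Where the level was taken relative to the median of the 82 genes in the same library, so that the movement of whole libraries dropped out, most genes kept their place. Compared with GFPhigh cells, 1 gene lay above and 2 lay below in every bihormonal library, while 0.408% of all genes lay above and 18.9% below on the same scale. Subtracting the median of the members centres the members themselves and shifts all other genes against the members' own change. The shares of all genes in this paragraph are therefore no baseline for how many members should differ. RPS24 was at −0.43 ± 0.39 in bihormonal cells and −1.07 ± 0.27 in GFPhigh cells on the log2 scale, while RPL6 (0.50 ± 0.14 against 0.85 ± 0.06) and RPL21 (0.96 ± 0.17 against 1.26 ± 0.16) were lower. Compared with β-cells (−0.93 ± 0.12 for RPS24), RPS24 and RPL28 were above (2.57% of all genes) and RPL22L1 below (−0.38 ± 0.17 against 0.07 ± 0.18; 4.98% of all genes). In RPL28 the difference was 0.15 with a tight spread (−0.98 ± 0.06 against −1.13 ± 0.06). Between GFPhigh and GFPlow cells, 7 genes were above without overlap (among them RPL15, RPS15A, RPL5 ENSDARG00000015862, RPL30, RPL6 and RPL13) and 2 below (RPS21 and rps3), against 12.1 and 17.3% of all genes. Against β-cells, rps3 (−0.80 ± 0.37 against −0.40 ± 0.10) and RPL5 ENSDARG00000020197 (−0.98 ± 0.09 against −0.55 ± 0.12) were below in all GFPhigh libraries (4.41% of all genes). These relative levels are given as a description, with no test.

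Some ribosomal proteins have a paralog, and the ratio of 2 such genes within a library does not depend on the scaling between libraries. There were 8 pairs, compared in 4 ways each, which gives 32 tests with p adjusted over all of them. With 3 libraries in a group the smallest p the exact test can give is 0.0238 against 6 libraries, 0.0167 against 7 and 0.1 against 3, so that only the comparison of bihormonal with β-cells (smallest p 0.00117) could pass by a single test. Only 1 passed. RPL22L1 and RPL22 encode related proteins that share a place in the large subunit, and in mouse RPL22 represses expression of its paralog. The log2 ratio of RPL22L1 to RPL22 was 1.76, 1.17, 1.64, 1.40, 1.65 and 1.63 in bihormonal libraries 1 to 6 and 1.79 to 2.44 with a median of 2.12 in β-cells. The groups did not overlap, with means of 1.54 ± 0.22 and 2.13 ± 0.26 (exact two-sided permutation test, p = 0.00117, adjusted p = 0.0373). The ratio was 2.13, 1.81 and 1.84 in GFPhigh cells, also above all bihormonal libraries (exact permutation p = 0.0238, adjusted p = 0.267), and 1.94, 2.18 and 2.12 in GFPlow cells. RPL22 itself had 763, 1423, 1025, 1446, 1134 and 747 normalized counts in bihormonal cells against a median of 683 and a highest value of 994 in β-cells, while RPL22L1 had 2322 to 3832 against 2138 to 5023. Taken singly against β-cells, neither passed the test: the log2 fold change was 0.55 ± 0.22 for RPL22 (adjusted p = 0.0872) and −0.11 ± 0.23 for RPL22L1 (adjusted p = 0.818).

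The ratio of both RPL5 genes, ENSDARG00000015862 to ENSDARG00000020197, was 0.94, 0.92 and 1.12 in bihormonal libraries 1 to 3 and 0.33, 0.46 and 0.29 in libraries 4 to 6. It was 0.85, 1.86 and 0.62 in GFPhigh cells, −0.07 to 0.68 in β-cells and 0.15 to 0.37 in GFPlow cells. For GFPhigh against β-cells the exact permutation p was 0.0333 and for bihormonal against β-cells 0.0326 (adjusted p = 0.267 for both). For GFPhigh against GFPlow, which did not overlap, the exact p of 0.1 was the smallest possible. Bihormonal libraries 1 to 3, all of run A, stood apart from libraries 4 to 6 in this ratio. Libraries 1 to 3 also have 1 kind of count table and libraries 4 to 6 the other (described with RPL26). Run and kind of table cannot be told apart in this split. With group in the model, edgeR fitted ENSDARG00000020197 0.46 higher on the log2 scale in the second kind (adjusted p = 0.160). For ENSDARG00000015862 the difference was −0.02. The ratio of rps27.1 to rps27.2 differed by less than its spread in every comparison, and so did that of both RPS26 genes, whose largest difference was −0.25 (GFPhigh against GFPlow). Reads of near-identical copies may have been shared between them or dropped in counting, so the split within the RPS26 and RPL5 pairs is uncertain.

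**Figure D4:**
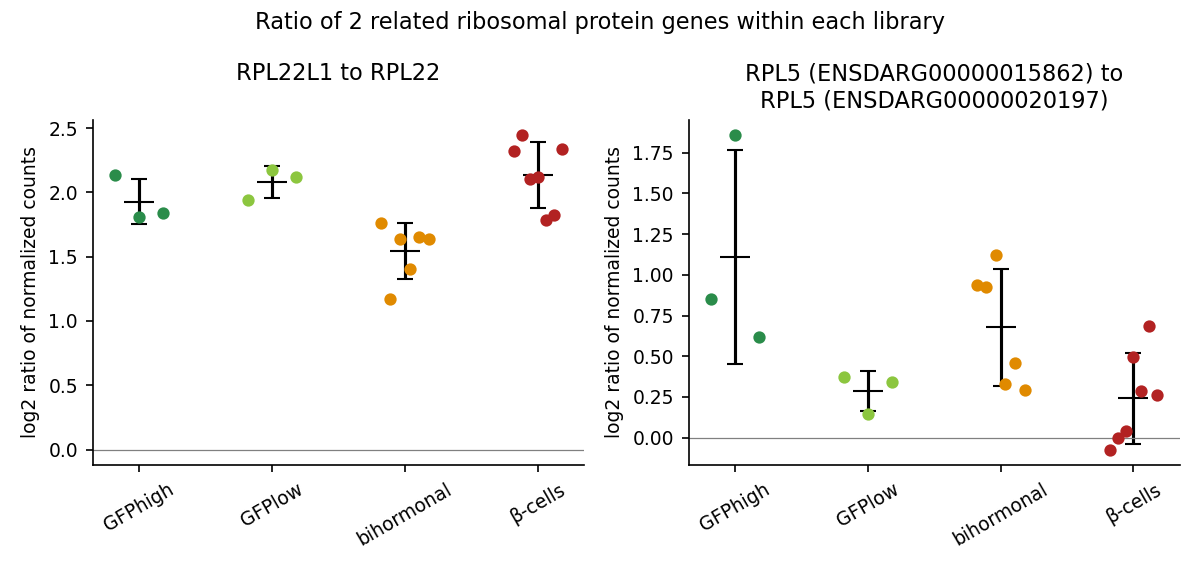
Log2 ratio of the normalized counts (y axis) of RPL22L1 to RPL22 (left) and of both RPL5 genes (right) in each library of the 4 groups (x axis), with mean and SD in black. All 6 bihormonal libraries have an RPL22L1 to RPL22 ratio of 1.17 to 1.76, below the 7 of β-cells (1.79 to 2.44). In the right panel bihormonal libraries form 2 clusters, which also differ in the kind of count table.

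RPL26, of the large subunit, was close to the floor of detection. It had raw counts of 1 to 8 in 7 count tables and 8 to 62 in the other 12, and this split followed how the tables had been written: the 7 give gene identifiers in quotation marks and the 12 do not. With group in the model, RPL26 differed 3.42 on the log2 scale between the kinds of table (adjusted p = 0.000248), the only 1 of the 82 genes to do so, against 2.54% of all genes. The kinds of table are spread unevenly over the groups (bihormonal 1 to 3, GFPhigh 1 and 2, β-cell 4 and 5 are quoted), so the group values of RPL26 are not interpreted. With the kind of table as a block, 13 of the 82 genes were called higher than in GFPhigh cells, against 2.5% of all genes, and 20 higher than in β-cells, against 10.7%.

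Genes linked to ribosomes in other ways were compared as lists. Of 75 mitochondrial ribosomal protein genes, 74 were fitted higher in bihormonal than in GFPhigh cells, with a median log2 fold change of 0.87, close to that of the cytosolic set, and 2 rose (1.78% of all genes), MRPL28 (1.36 ± 0.33) among them. In GFPhigh against β-cells their median was −0.58, and 16 of 75 fell with none rising, where 11.9% of all genes fell and 13.7% rose. Of 51 translation factors 42 were fitted higher than in GFPhigh cells (median 0.59), and 4 rose (1.78% of all genes), including EEF1B2 (0.96 ± 0.26) and EEF1G (0.83 ± 0.22), subunits of the factor that recharges eEF1A. Against β-cells 10 rose and 1 fell, where 9.97% of all genes rose and 8.69% fell. The elongation factor eef2b rose from 9022 ± 1410 to 18266 ± 4606 (1.02 ± 0.21, adjusted p = 0.00133) and eef1a1l1 from 43005 ± 5913 to 70131 ± 15212 (0.71 ± 0.18), whereas EEF1A1 fell (−1.21 ± 0.32).

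Of 61 tested ribosome biogenesis genes, 2 rose against GFPhigh cells (median 0.36; 1.78% of all genes rose), polr1e of RNA polymerase I (1.50 ± 0.34) and IMP4 (1.63 ± 0.38), and 5 rose against β-cells (median 0.11), a share below the 9.97% of all genes. The assembly factors GTPBP4 and DDX21 were higher in bihormonal than in β-cells (1.40 ± 0.23 and 1.21 ± 0.20) and also higher in GFPhigh than in β-cells (1.05 ± 0.27 and 1.21 ± 0.23), comparisons that share the β-cell libraries. In GFPhigh against β-cells, however, 10 of the 61 fell and 3 rose (median −0.36), where 11.9% of all genes fell and 13.7% rose. IMP4 (−1.41 ± 0.37) and NOP10 (−1.43 ± 0.36) were among those that fell. Among 20 genes of signalling linked to ribosomes none was called between bihormonal and GFPhigh cells by edgeR. The nearest was mdm2 (1.00 ± 0.28, adjusted p = 0.0502). LARP1, which binds the mRNAs of ribosomal proteins, had 134 ± 54.7 normalized counts in GFPhigh cells and 29.5 ± 11.1 in β-cells (2.17 ± 0.41, adjusted p = 0.000640). EIF4EBP3, of a family that blocks the cap-binding factor, was lower in bihormonal cells (10.2 ± 3.87) and in GFPhigh cells (10.1 ± 8.88) than in β-cells (76.9 ± 47.2).

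**Figure D5:**
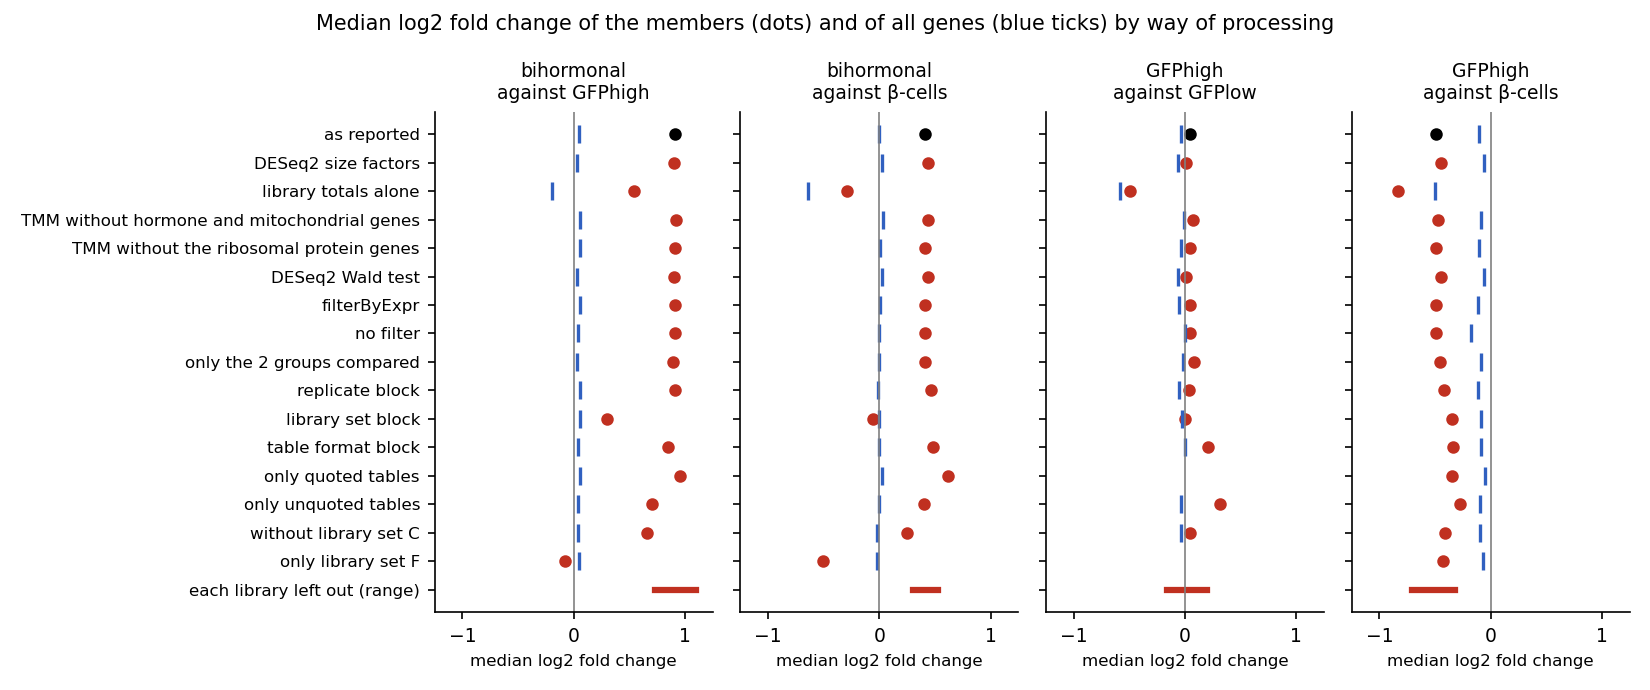
Median log2 fold change of the 82 genes (dots) and of all genes (blue ticks) in the 4 comparisons (panels), for the reported fit (black) and each other way of processing (rows). The bar in the last row spans the fits that leave out 1 library. The median of bihormonal against GFPhigh cells is above 0 in all ways but within run F (−0.08), and that of bihormonal against β-cells lies below 0 with library totals alone (−0.29), with the run as a block (−0.06) and within run F (−0.50).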

How the data were processed

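Poly(A) RNA of 19 pools of sorted cells was amplified by SMART-Seq2 and made into Nextera libraries. The authors deposited 1 table of raw read counts per gene and library, made with STAR and featureCounts on GRCz11 with an Ensembl gene annotation, according to the submitters' notes and the study's methods (versions of both tools not given in the sources used here). The deposited counts carry no molecular identifiers. Symbols came from a table of Ensembl names, which named 29178 of 31901 genes. RPSA2 (ENSDARG00000019181) was kept as RPSA, and RPL41, which the name table gives under a clone name that the symbol rule does not take, was not analysed here. The summed shares of counts therefore leave RPL41 out. The paper lists RPL41 among the most highly expressed genes of its single exploratory sample of regenerated β-cells. Some members are counted but not reported here by name. The choice of members and lists was made with earlier results of these data known.

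Counts were fitted with the quasi-likelihood test of edgeR 4.0.16 (R 4.3.3) with TMM scaling and 1 mean per group over all 19 libraries, on the 14693 genes whose normalized count averaged 10 or more, and p was adjusted by Benjamini-Hochberg over all of them. Calls were made at an adjusted p under 0.05, and a fold above 2 was counted separately. The common dispersion was 0.139, a coefficient of variation of 37.3% between libraries, and the range of total counts per library is given with the data. Replicates are separate pools, numbered in the labels. Ratios of paralogs used normalized counts plus 1 and exact two-sided permutation tests (SciPy 1.17.1). Pairs were genes with the same symbol, with the suffixes 1 and 2 (rps27.1 and rps27.2), or with an added l or l1; human-style symbols ending in A name other proteins and were not paired. The fit was also run on simulated counts, with each gene drawn independently and no movement shared by the genes of a library. Its outcome is not reported here.

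Genes named in the text were, for each comparison, up to 5 per direction with the smallest p and up to 3 per side farthest from the median of the members, plus the stalk genes, RPSA, RPL5, RPL11, RPS6, RPL22, RPL22L1, RPL7L1, rps27.1, rps27.2, RPL3, RPL10, rps3 and RPS19, the paralog pairs and up to 4 genes per list. Genes named for relative levels, RPL26, RPL27 and RPS16 were picked after their values were seen. Alternatives were DESeq2 1.42.0 size factors and Wald test, library totals, TMM without hormone and mitochondrial genes or without the members, other filters, only the groups compared, blocks for replicate number and library run, and each library left out. Those on the kind of table and on single runs were chosen after seeing the data.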

Additional observations from a re-analysis of the deposited data

How the results depend on the processing

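The libraries, 3 per δ-cell sort, limit what can be called. With library totals alone the median of all genes moved to −0.64 for bihormonal against β-cells, −0.59 for GFPhigh against GFPlow, −0.50 for GFPhigh against β-cells and −0.19 for bihormonal against GFPhigh, and the medians of the 82 genes were −0.29, −0.49, −0.84 and 0.54. Relative to all genes they were 0.35, 0.09, −0.33 and 0.73, against 0.41, 0.08, −0.38 and 0.86 as reported.

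Against GFPhigh cells the genes called higher in bihormonal cells numbered 57 with DESeq2's Wald test, where 7.25% of all genes were. They numbered 3 with no filter (0.689% of all genes), 13 with the kind of table as a block (2.50%) and 1 without run C (0.204%). None was called with library totals (0.142%), only the 2 groups (0.158%), the replicate block (0.0136%), the run block (0.204%) or quoted tables only (0.0779%). The median was 0.30 with the run block. It was 0.71 with unquoted tables only and −0.080 in run F, each with 1 GFPhigh library. Leaving out 1 library gave 0 to 42 genes and medians of 0.73 to 1.1. Against β-cells the number was 14 with DESeq2's Wald test (11.4% of all genes) and 20 with the kind of table as a block (10.7%). It was 4 with the replicate block (8.11%) and 2 with unquoted tables only (7.26%) or without run C (9.59%). It was 1 with the run block (5.82%) or quoted tables only (4.93%). With library totals none was called higher (5.22% of all genes). That fit called 5 lower, where 43.8% of all genes were called lower. The median was −0.058 with the run block and −0.50 in run F, and leaving out 1 library gave 3 to 17 genes and medians of 0.31 to 0.52.

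For GFPhigh against GFPlow 3 genes were lower with library totals, where 21.1% of all genes were called lower. With only the 2 groups 1 of 80 tested was higher (9.29% of all genes). Leaving out 1 library gave 0 genes, where 11.7 to 20.1% of all genes were called in either direction, and medians of −0.16 to 0.20. For GFPhigh against β-cells the number lower was 63 with library totals (24.99% of all genes) and 6 with DESeq2's Wald test (13.94%). The number was 1 with DESeq2's size factors (10.57%), TMM without hormone and mitochondrial genes (10.97%), no filter (5.85%) or the run block (8.19%). None was called lower with the replicate block (5.697%), the kind of table as a block (9.28%) or quoted tables only (2.704%). The median was −0.28 with unquoted tables only and −0.43 in run F, each with 1 GFPhigh library. Leaving out 1 library gave 0 to 20 genes and medians of −0.70 to −0.32.

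The correlation of deviations between libraries with the same replicate number ran from −0.32 to 0.22. For GFPhigh against GFPlow all 3 such correlations were above 0 (0.0244 to 0.222, median 0.135), against a median of −0.1 for other numbers. In the other comparisons the median for the same number was below 0 (−0.0604, −0.126 and −0.0579). Whether the replicates of the GFPhigh and GFPlow sorts were paired was not tested. The shares without hormone and mitochondrial counts had means of 6.94, 5.78, 4.54 and 5.09% in bihormonal, β-, GFPhigh and GFPlow cells. Among the named genes, those against β-cells that turned were RPL29 (−0.56), RPL37 (−0.82), RPL19 (−0.56) and RPL17 (−0.38) in run F and RPL19 (−0.017) and RPL17 (−0.17) with library totals. RPS24 stayed called in 26 of 28 alternatives against β-cells (adjusted p from 1.95e-05 to 0.565), the log2 fold change being 0.24 with library totals and 0.76 in run F where the call was lost, and in 16 of 24 against GFPhigh cells, with a log2 fold change of 1.05 to 1.76. RPL15 stayed called in 24 of 28, and its log2 fold change against β-cells was 0.22 with library totals, 0.55 with the run block, 0.92 with quoted tables only and 0.035 in run F. The RPL22L1 to RPL22 test passed with 10 added to the counts as well. It failed without any 1 library (adjusted p from 0.0693 to 0.0808), where its exact p was the smallest that fewer libraries allow at each size. The cause of these changes was not tested.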

Other observations

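The library with the lowest ribosomal protein levels of each GFP sort did not hold all of these genes low. GFPhigh library 2 was the lowest of its 3 libraries for 62 of the 82 genes but the highest for 10, and its log2 deviations had an interquartile range of 0.79, against 0.18 to 0.49 in the other libraries. GFPlow library 2 was the lowest of its 3 for 68 genes and the highest for 8. Both lists of highest genes shared 5 members, 50.0% of the first and 62.5% of the second, among them RPL3, rps20, RPS13 and RPL7L1. RPS13, of the small subunit, had 1627, 2500 and 1838 normalized counts in GFPhigh libraries 1 to 3, and 1455, 1682 and 1681 in GFPlow libraries 1 to 3, where the second was level with the third. RPL7L1, a relative of RPL7 that in human cells works in ribosome assembly, had 137, 367 and 152 in GFPhigh cells and 141, 203 and 173 in GFPlow cells. These genes were chosen after their values were seen, and GFPhigh library 2 was also the library with the fewest genes with a count (15331).

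RPL22L1 was 1 of the 2 genes that did not have their highest group mean in bihormonal cells. It had 3356 ± 1179 normalized counts (SD) in β-cells and 3118 ± 571 in bihormonal cells.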
